A study of Mus musculus with 3 samples.

Results

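The 5 class II odorant receptor genes described here are Olfr73, Olfr749, Olfr154, Olfr16 and Olfr976 of the mouse. They were chosen by their measured signals, since each was brighter on both GFP positive arrays of this study than on the GFP- array, so their levels stand below as a description with no test. They are 5 of the 38 odorant receptor genes with a probe set of their own, and of 18193 genes on the array in all. The array covers few receptors, since RefSeq (GRCm38.p6) lists starts for 940 odorant receptor genes.

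The study sorted cells of the olfactory epithelium by the strength of their green fluorescence. The mice were Tgn1-2G transgenics 5 to 8 days after birth, male and female together, in every group. The groups were 1000000 strongly fluorescent cells (GFP+++), 1300000 weakly fluorescent cells (GFP+) and 6800000 cells without fluorescence (GFP-). In this strain GFP is driven, as other work describes it, by elements of Neurog1, a proneural gene of neuronal progenitors, and not by those of a receptor gene. The submitters describe GFP+++ as rich in immature neurons, GFP+ as slightly richer in mature neurons, and GFP- as a mixture of all cell types that had lost immature neurons. Each group was 1 array, and with both sexes in it the RNA came from more than 1 animal. The labels give the number 32 for every group and do not say whether the groups came from the same animals. There is therefore no replicate, no error between samples and no test, and every fold below compares arrays.

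An odorant receptor is a G protein coupled receptor of the olfactory cilium, and each olfactory sensory neuron uses 1 receptor gene out of the whole repertoire. Class I receptors resemble those of fish and sit in a single cluster on chromosome 7, while class II receptors are spread over many chromosomes. A neuron can use only the receptors of its zone, the ring of epithelium from dorsal to ventral in which it lies. Class I receptors and part of class II belong to the dorsal zone, where neurons express the quinone reductase Nqo1, and the more ventral zones are marked by the adhesion molecule Ncam2 (OCAM) and the semaphorin receptor Nrp2. Receptor transcripts first appear in late immature neurons and stay on in mature ones.

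Of the 5 receptors, Olfr73 is known as mOR-EG, a receptor for eugenol and vanillin, and Olfr16 is known as MOR23, the receptor for lyral. Axons of neurons with either receptor run to the dorsal olfactory bulb. Olfr154, earlier called OR93, responds to aliphatic ketones. Olfr749 (MOR106-1) and Olfr976 (MOR224-10) are given here without a ligand or zone. Olfr73 (MOR174-9) and Olfr154 (MOR175-1) stand on chromosome 2, Olfr749 on chromosome 14, Olfr976 on chromosome 9 and Olfr16 on chromosome 1, so all 5 lie outside the class I cluster. For Olfr976 the probe set was designed on an expressed sequence tag, and those of the other 4 genes on RefSeq transcripts. Each of the 5 has 1 probe set, so no second probe set can speak for or against its signal.

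The sequences before the gene starts are shown because receptor promoters are known for homeodomain sites, read by factors such as Lhx2 and Emx2, near the start. RefSeq windows of 300 bases, from 250 before to 50 after the start, were searched on both strands for TAATNA (a homeodomain core), TCCCNNGGG (a core of the Ebf site) and TATAAA. Olfr976 has 2 annotated starts, which gives 6 windows for the 5 genes. The 250 bases before the start are printed for the 4 windows that hold TAATNA, with each match in capitals (on the minus strand of the window it reads TNATTA).
Olfr16, chr1:172956518-172956767, plus strand: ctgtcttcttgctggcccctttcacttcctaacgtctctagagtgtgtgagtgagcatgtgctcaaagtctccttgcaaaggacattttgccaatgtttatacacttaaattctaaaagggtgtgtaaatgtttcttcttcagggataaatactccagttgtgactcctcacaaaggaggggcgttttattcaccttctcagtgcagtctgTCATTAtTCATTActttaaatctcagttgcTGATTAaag
Olfr749, chr14:50744325-50744574, minus strand: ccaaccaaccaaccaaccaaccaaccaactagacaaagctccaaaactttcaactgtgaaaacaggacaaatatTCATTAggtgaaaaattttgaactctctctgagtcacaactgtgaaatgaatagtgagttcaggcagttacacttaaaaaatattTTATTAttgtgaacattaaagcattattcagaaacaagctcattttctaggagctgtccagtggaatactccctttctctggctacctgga
Olfr73, chr2:88035138-88035387, minus strand: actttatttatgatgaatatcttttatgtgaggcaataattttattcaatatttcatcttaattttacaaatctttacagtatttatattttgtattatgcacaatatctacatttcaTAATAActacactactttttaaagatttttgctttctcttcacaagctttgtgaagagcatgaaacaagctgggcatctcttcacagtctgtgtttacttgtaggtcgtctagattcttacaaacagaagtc
Olfr976, upstream start, chr9:39961045-39961294, minus strand: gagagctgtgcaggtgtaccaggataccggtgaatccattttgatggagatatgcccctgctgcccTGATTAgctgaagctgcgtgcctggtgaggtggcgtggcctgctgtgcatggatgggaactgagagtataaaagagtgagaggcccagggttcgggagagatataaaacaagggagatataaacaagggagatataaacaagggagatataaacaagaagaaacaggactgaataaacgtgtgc

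The core occurred 3 times before the start of Olfr16, beginning at -39, -32 and -9. It occurred 2 times before Olfr749 (at -176 and -91) and 1 time before Olfr73 (at -132) and the upstream start of Olfr976 (at -184). Neither the window of Olfr154 nor that of the inner start of Olfr976 held it. TAATNA was found in 65.9% of 944 windows of odorant receptor genes and in 26.5% of 32851 windows of all genes, so its presence in 4 of 6 windows is the common state among receptors. The receptor windows are rich in A and T (63.9% on average against 46.2% over all windows).

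TATAAA stood in 3 of the 6 windows, against 41.2% of receptor windows and 13.6% of all windows. The upstream start of Olfr976 held it 5 times, 4 of them in the repeated stretch between -83 and -32, while Olfr73 (at -168) and Olfr16 (at -154) held it 1 time each on the minus strand. In the 6 windows TAATNA and TATAAA shared 0 bases. TCCCNNGGG was in 0 of the 6 windows and in 2.54% of receptor windows. These letters are a description of the windows only. In 72.6% of the receptor windows the annotated start is the ATG itself, as it is for Olfr73, so a window at the annotated start need not hold the promoter. The models of Olfr73, Olfr16 and Olfr154 are 942, 1050 and 1079 bases long, near the length of a receptor's coding exon, and those of Olfr976 and Olfr749 span 6788 and 8106 bases.

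**Figure D1:**
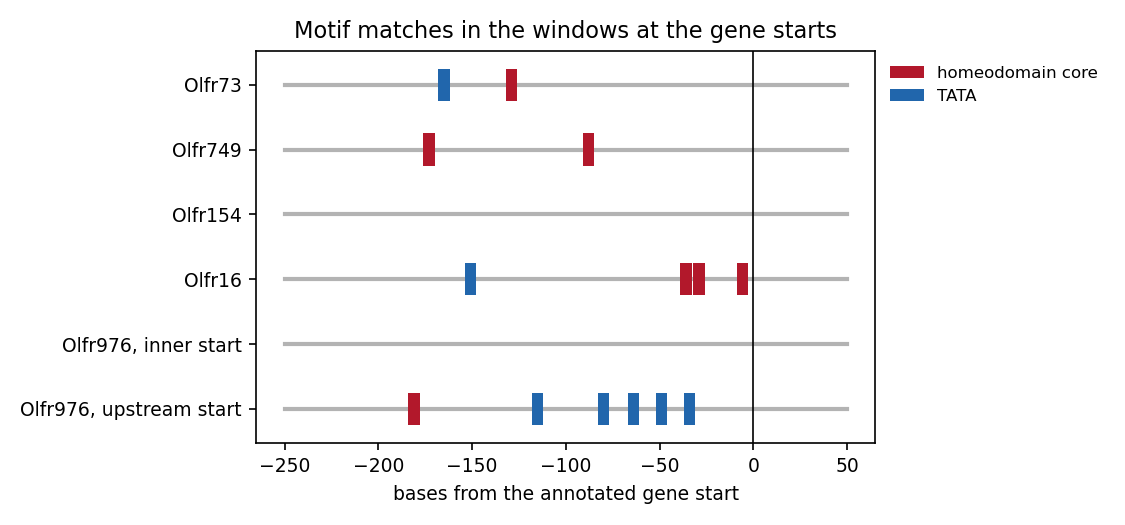
Matches to the homeodomain core TAATNA (red) and to TATAAA (blue) in the 6 windows at the starts of the 5 receptor genes; the horizontal axis is the distance in bases from the annotated start. Olfr16 has 3 homeodomain cores within 39 bases of its start, and the windows of Olfr154 and of the inner start of Olfr976 have no match to either motif.

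The deposited signal of a probe set is a linear MAS5 intensity in arbitrary units. Signals under 104, the median over all probe sets and arrays, were treated as background and raised to that floor before a ratio was taken. A ratio of 2 or more is called a difference here, and a ratio with the dimmer array under the floor is a lower bound.

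Olfr749 was the brightest of the 5 on every array, although brightness cannot be compared between probe sets as a transcript level. It read 1696 on GFP+++, 1570 on GFP+ and 388 on GFP-. Both GFP positive arrays lay well above GFP-, by 4.37-fold for GFP+++ and 4.04-fold for GFP+. It is the only 1 of the 5 whose GFP- signal was over 2 times the floor.

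Olfr73, the eugenol receptor, read 1040 on GFP+++, 861 on GFP+ and 159 on GFP-. The GFP- array was close to the floor and the other arrays were 8.25 to 9.97 times the floor. The ratios were 6.55-fold for GFP+++ and 5.42-fold for GFP+, the largest of the 5 where both arrays were above the floor.

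Olfr154, the ketone receptor, read 505 on GFP+++, 468 on GFP+ and 127 on GFP-. The GFP positive arrays were nearly level, at 3.96-fold and 3.68-fold over GFP-. Olfr16, the lyral receptor, read 394 on GFP+++, 347 on GFP+ and 126 on GFP-. These ratios, 3.13-fold and 2.75-fold, were the smallest of the 5 among those measured on both arrays. For both genes the GFP- signal was 1.2 times the floor, so a small error in it moves the ratio.

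Olfr976 read 506 on GFP+++, 323 on GFP+ and 55.0 on GFP-. Its GFP- signal was under the floor, so it was at least 4.85-fold above GFP- in GFP+++ and at least 3.09-fold in GFP+. Taken as deposited, with no floor, the ratios were 9.20-fold and 5.87-fold. It was also the receptor in which the GFP positive arrays stood furthest apart.

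**Figure D2:**
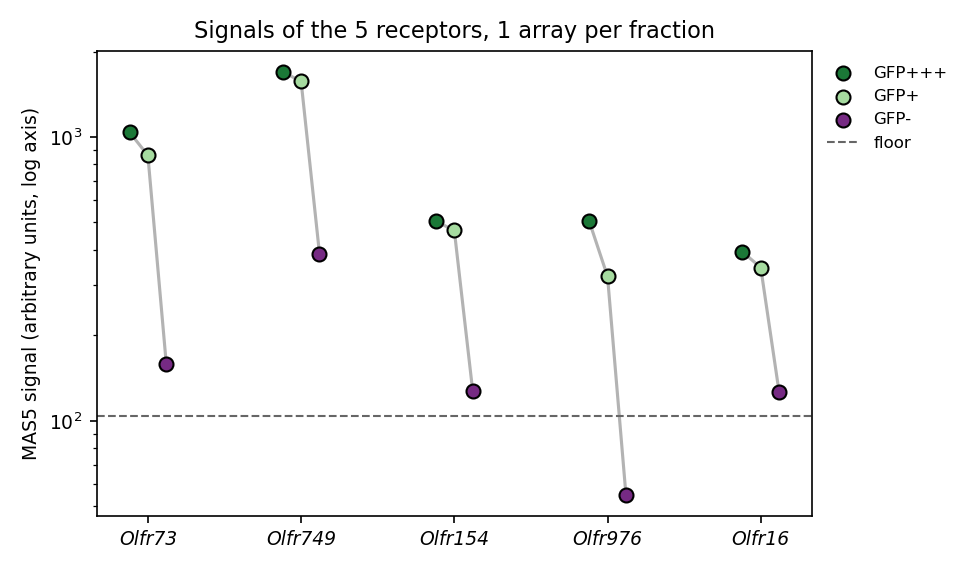
Signal of each receptor (vertical axis, MAS5 units, log axis) on the GFP+++ (dark green), GFP+ (light green) and GFP- (purple) arrays, 1 array each; the dashed line is the floor of 104. In all 5 genes the GFP- point is the lowest, and for Olfr976 it lies under the floor at 55.0.

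All 5 were at least 2-fold above GFP- on both GFP positive arrays, as they were chosen to be. Among all genes, 22 of 12331 (0.178%) met this, while a 2-fold higher signal was found for 235 of 12235 (1.92%) with GFP+++ alone and for 74 of 12196 (0.607%) with GFP+ alone. Ordered by the smaller of its ratios, Olfr73 came at place 1 of these 12331 genes, Olfr749 at 2, Olfr154 at 3, Olfr976 at 4 (as a bound) and Olfr16 at 7. Nothing is read from these shares and places, since the same ratios chose the receptors and both comparisons use the 1 GFP- array. On the log2 scale the 5 lay between 1.64 and 2.71 for GFP+++ and between 1.46 and 2.44 for GFP+, and the median of all genes was 0.01 and -0.01. In bulk RNA a smaller share of neurons that use a receptor and less receptor RNA per neuron cannot be told apart.

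The only error that the arrays offer is the spread among probe sets of 1 gene. For probe sets with a mean signal in the range of the 5 receptors, 289 to 1218, the pooled SD of the log2 ratio was 0.31 for GFP+++ over GFP- (1569 genes) and 0.23 for GFP+ over GFP- (1605 genes). Biological and sorting variation is no part of these SDs.

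GFP+++ against GFP+ compares the 2 fractions that share these receptors. The ratio was 1.21-fold for Olfr73, 1.08-fold for Olfr749, 1.08-fold for Olfr154, 1.14-fold for Olfr16 and 1.57-fold for Olfr976, all toward GFP+++. On the log2 scale these are 0.27, 0.11, 0.11, 0.19 and 0.65, beside a probe set SD of 0.30 (1569 genes). The SD is given for scale only, since with 1 array a fraction no difference between these fractions can be tested. None of the 5 was called at 2-fold, where 0.985% of 11881 genes were higher in GFP+++. The order of the arrays was GFP+++, GFP+, GFP- in all 5 genes, with the smallest step between the first pair in Olfr749 and Olfr154 and the widest in Olfr976.

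The neuron markers had other orders. Omp, the marker of mature neurons, read 5041 on GFP+++, 10615 on GFP+ and 7748 on GFP-, so GFP+ was the highest. Gap43, the growth cone protein of immature neurons, read 11233, 6006 and 6395, so GFP+++ was the highest, and which of the other arrays was lower turned with the scaling. The 8 mature neuron genes listed had a median log2 fold over GFP- of -0.46 in GFP+++ and 0.21 in GFP+. For the 8 immature neuron genes it was 0.45 and -0.22. In GFP+ none of these 16 genes was at least 2-fold apart from GFP-, beside 0.607% of all genes higher and 0.804% lower. In GFP+++ only Crmp1, a semaphorin signalling protein of growing axons, passed 2-fold, upward (log2 1.07). Of all genes 1.92% passed upward and 12.4% downward in GFP+++. With median scaling 4 immature genes passed 2-fold there, and with quantile normalization 0. Median scaling also raised the median log2 ratio of all genes there to 0.42.

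Cells other than neurons also differed between the arrays. The summed signal of 5 macrophage and neutrophil genes was 422 on GFP+++, 13331 on GFP+ and 14551 on GFP-, that of 5 fibroblast genes 2047, 19651 and 31088, that of 5 gland genes 6948, 22897 and 34546, and that of 6 sustentacular genes 39920, 45724 and 62731. A 2-fold lower signal in GFP+++ was found for 5 of 5, 5 of 5, 5 of 5 and 2 of 6 of these genes, beside 12.4% of 12235 genes, and 0 of these 21 in GFP+, beside 0.804% of 12196 genes. Basal cell genes (3 of 3, summed signal 264, 984 and 1664) and ensheathing glia genes (3 of 3, summed signal 1326, 4079 and 6232) passed 2-fold downward in GFP+++ too, and so did Mki67 and Top2a, the proliferation markers among 4 progenitor genes. Ptprc, Cd68, S100a9, Sox9, Krt14, Trp63, Sox10 and S100b were under the floor on GFP+++, so their ratios there are bounds. The summed signals were taken without the floor. The part of other cell types in the receptor ratios was not tested.

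The other receptors on the array show how these 5 stand within the family. Of the 38 receptor genes 31 passed the floor on some array, and 21 of these are class II. Beside the 5, the remaining 16 class II receptors had a median log2 fold over GFP- of -0.98 in GFP+++ and, for 15 of them, -0.63 in GFP+. All of the 16 but Olfr480, Olfr870 and Olfr74 were under the floor on GFP+++, so the median there rests on bounds. The median in GFP+ falls on Olfr156, also under the floor there. In GFP+++ 1 of the 16 passed 2-fold upward and 8 downward, all 8 as bounds, against 1.92% and 12.4% of all genes. In GFP+ 0 of the 15 passed 2-fold upward and 5 downward, against 0.804% of all genes, and 5 were lower on both arrays, against 0.746% of all genes. Olfr1507 and Olfr288 passed downward in GFP+ as bounds too. With median scaling the lower counts were 6 of 15, 3 of 14 and 3 of 15, and with quantile normalization 6 of 15, 4 of 14 and 4 of 15. The shares of all genes passing 2-fold downward were not recomputed for these scalings. A receptor passed the floor through the array on which it was bright, so these counts describe receptors that were measurable and no others.

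Next outside the 5 among class II came Olfr480 (MOR204-32), which read 224 on GFP+++, 202 on GFP+ and 69.6 on GFP-. It was at least 2.15-fold above GFP- in GFP+++ and at least 1.93-fold in GFP+, both bounds set by the floor, while Olfr16, the last inside, was at 3.13-fold and 2.75-fold. Taken as deposited, with no floor, the ratios of Olfr480 were 3.22-fold and 2.90-fold, so its place outside the 5 rests on the floor. After it, with the floor, came Olfr870, bright on all arrays (949, 1171 and 847) and within 2-fold, at 1.12-fold and 1.38-fold.

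With the floor at 104, the receptors with a probe set of their own that joined the 5 in passing 2-fold on both arrays were 2 of class I. With no floor 10 receptors passed in place of 7, the added ones being Olfr480 and Olfr74 of class II and Olfr658 of class I. Olfr672 read 1574 on GFP+++, 2974 on GFP+ and 649 on GFP-, brightest on GFP+. Olfr78, a receptor for short chain fatty acids that is also used outside the nose, gave 989, 1047 and 351 on its brightest probe set. A second probe set gave 1.44-fold in GFP+++ and 2.32-fold in GFP+. Another, with GFP- under the floor, gave bounds of at least 2.40-fold and at least 1.08-fold (15.2-fold and 6.88-fold as deposited), and the last of the 4 was under the floor on all arrays. GFP+ was thus the brighter GFP positive array on both probe sets with all arrays above the floor, and GFP+++ on the probe set with bounds. The class I receptors Olfr65 and Olfr658 were the next below, at 1.62-fold and at least 1.51-fold in GFP+++ against 5.52-fold and at least 2.05-fold in GFP+.

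The 10 class I receptors had a median log2 fold of -0.39 in GFP+++ against GFP+, and 3 passed 2-fold downward, beside 9.34% of all genes. Olfr558, Olfr66, Olfr67 and Olfr68 were under the floor on GFP+++ (51.0, 41.9, 49.6 and 38.7) and passed it only on GFP+. Their downward direction was therefore set by the filter, and their ratios are bounds. The median falls between Olfr658 (-0.45) and Olfr66 (-0.34), so it rests partly on a bound. The class I median was -0.28 with median scaling and -0.28 with quantile normalization. Relative to the median of all genes it was -0.37 under the main setting, -0.53 with median scaling and -0.29 with quantile normalization. The 5 class II receptors, above the floor on both GFP positive arrays, lay between 0.11 and 0.65 in this comparison under the main setting. A difference between the classes was not tested. Of 3 probe sets assigned to several receptors, and so left without a name, 2 passed 2-fold on both arrays. The first read 274 on GFP+++, 215 on GFP+ and 36.5 on GFP-, at least 2.63-fold and at least 2.06-fold above GFP-. The second read 419, 1191 and 178, at 2.36-fold and 6.71-fold.

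**Figure D3:**
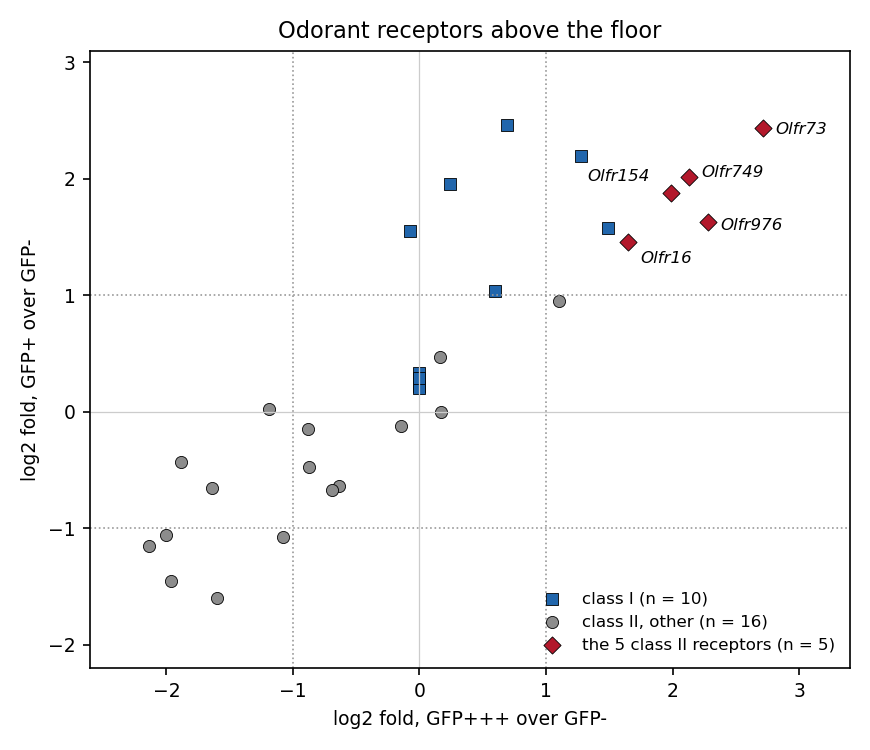
Log2 fold of GFP+++ over GFP- (horizontal) and of GFP+ over GFP- (vertical) for the 31 odorant receptors above the floor, both taken against the same GFP- array; dotted lines mark 2-fold. The 5 receptors (red diamonds) lie at 1.64 or more and 1.46 or more, while 8 of the 16 other class II receptors (grey) lie at -1 or less on the horizontal axis. The GFP+++ signals of these 8 were under the floor, so their horizontal positions are bounds.

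The genome neighbours with a probe set read as follows. Olfr73 lies between Olfr1161 and Olfr1162, in a run of 123 receptor genes unbroken by another protein-coding gene, and 3 others of that run have a probe set. Olfr74 (mOR-EV, MOR174-4), a receptor for ethyl vanillin of the same subfamily and 5 receptor genes away, was dim, at 118 on GFP+++, 59.0 on GFP+ and 17.7 on GFP-. Only its GFP+++ signal passed the floor, so the floored ratio is a bound close to 1. As deposited it was 6.64-fold and 3.33-fold above GFP-, with the arrays in the order of the 5 receptors. Olfr140, 103 receptor genes away, read 62.3, 207 and 459, so it was brightest on GFP-, by at least 4.40-fold over GFP+++ and 2.22-fold over GFP+. Olfr1264, 101 receptor genes away, was at 22.6, 106 and 168.

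Olfr749 has its measured neighbours on chromosome 14. It lies between Olfr748 and Ttc5, at the edge of a run of 13 receptor genes. Beyond that run, 7 to 9 receptor genes from Olfr749, stand Olfr1509, Olfr1508 and Olfr1507 of the MOR28 cluster, whose receptors are used in the ventral epithelium. They gave 31.2, 60.1 and 36.0 in GFP+++, 148, 201 and 98.7 in GFP+, and 406, 419 and 220 in GFP-. All 3 were under the floor in GFP+++, and Olfr1507 in GFP+ too, so their ratios there are bounds. All 3 were brightest in GFP-, the array on which Olfr749 was dimmest. Nothing is read from this contrast, since Olfr749 was chosen for being dimmer on GFP-. Olfr49, 10 receptor genes away, was near the floor on every array (74.9, 106 and 115).

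For the other 3 receptors the array holds no measured neighbour in the same run. Olfr154 lies between Olfr1002 and Olfr1006, in a run of 93, and is 158 receptor genes from Olfr73 along chromosome 2. Olfr976 lies between Olfr975 and Olfr978 in a run of 25, and the other receptor of chromosome 9 with a probe set is Olfr870, 122 receptor genes away. Olfr16 lies between Apcs, a serum amyloid gene, and Olfr1408, in a run of 5, and is the only receptor of chromosome 1 with a probe set. The 5 therefore come from 5 separate runs on 4 chromosomes.

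Genes that are not receptors but have a like pattern were looked for over the 3 arrays. Log2 signals were centred on the mean of each gene, and the root mean square difference from the mean profile of the 5 was taken for 10656 genes of sufficient signal. The mean profile was 0.80 on GFP+++, 0.54 on GFP+ and -1.34 on GFP-, and the 5 receptors themselves differed from it by 0.07 to 0.26. The 6 nearest genes were Stum (0.20), Hs3st3b1 (0.21), 4932412D23Rik (0.24), Nqo1 (0.29), Gng3 (0.29) and Tppp3 (0.30). With 3 points a gene, such likeness is a description only.

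Nqo1, the quinone reductase of dorsal zone neurons, read 8351 on GFP+++, 8432 on GFP+ and 3054 on GFP-. Its GFP positive arrays were level and lay 2.73-fold and 2.76-fold above GFP-, on 1 bright probe set. Stum, named for a fly gene of mechanosensory neurons, gave 690, 497 and 188. Hs3st3b1, which adds sulfate to heparan sulfate chains, gave 447, 382 and 139 on its brightest probe set, and its other 3 probe sets were under the floor. Gng3, a neuronal G protein gamma subunit, gave 2670, 1630 and 715, so its step from GFP+++ to GFP+ was larger, at 1.64-fold. Tppp3, a tubulin binding protein, gave 2446, 2195 and 886, and the uncharacterised transcript 4932412D23Rik 2595, 1948 and 777.

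**Figure D4:**
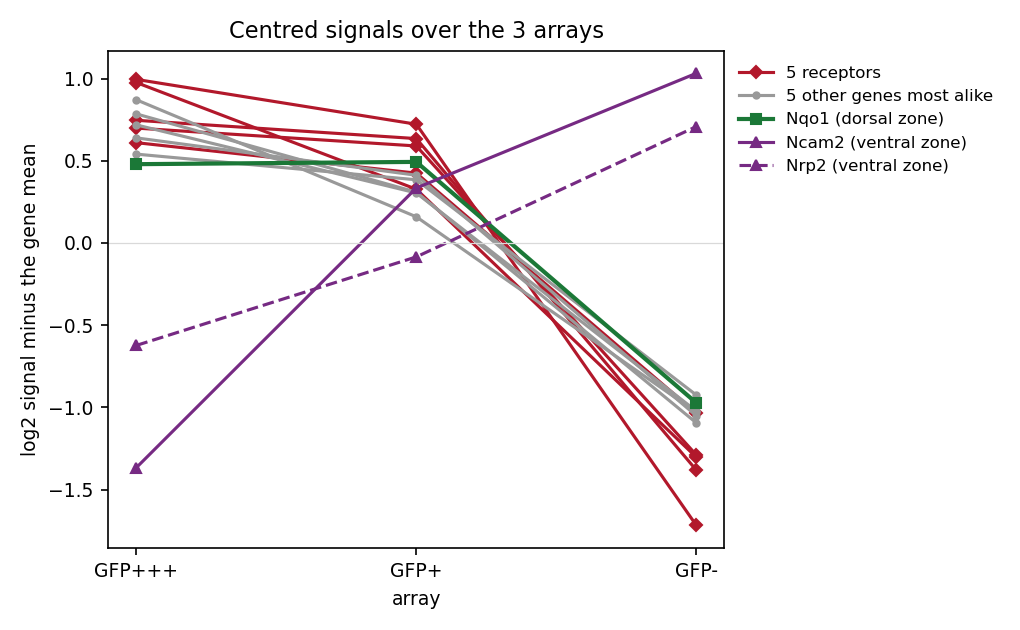
Log2 signal minus the mean of the gene on the GFP+++, GFP+ and GFP- arrays, for the 5 receptors (red), 5 of the 6 genes most alike (grey), Nqo1 (green) and 2 ventral zone genes (purple), with signals raised to the floor. Nqo1 follows the receptors at 2.73-fold and 2.76-fold above GFP-, and Ncam2 and Nrp2 run the opposite way. Zone genes that were not drawn differed from this: Msx1 of the dorsal list was at least 2.79-fold lower in GFP+++. Robo1 and Slit1 of the ventral list were within 2-fold.

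Zone genes were followed as lists. Of the 4 dorsal zone genes on the array only Nqo1 passed 2-fold upward in GFP+++, beside 1.92% of all genes. With median scaling 2 did, where the median log2 ratio of all genes rose to 0.42. Sema3f, a repellent made by dorsal axons, was at a log2 fold of 0.92 in GFP+++ and 0.55 in GFP+, and the guidance receptor Robo2 was near the floor (146, 74.6 and 83.3). Msx1, a homeodomain factor also found outside neurons, was at least 2.79-fold lower in GFP+++.

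Of 7 ventral zone genes 5 passed 2-fold downward in GFP+++ and 0 in GFP+, beside 12.4% and 0.804% of all genes. Ncam2 read 292 on GFP+++, 950 on GFP+ and 1541 on GFP-, and Nrp2 1106, 1606 and 2781. The nuclear factor genes Nfia, Nfib and Nfix were lower by log2 folds of -2.68, -2.95 and -2.70 in GFP+++. Robo1 (0.23) and Slit1 (0.08), an axon guidance pair, were within 2-fold. The list median was -2.40 in GFP+++ and -0.70 in GFP+, and with median scaling 4 of the 7 passed 2-fold in GFP+++. The gland, fibroblast and glia genes given above were lower in GFP+++ as well, and their part in this list was not tested.

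Genes that act with a receptor were also followed. Of 18 signal transduction genes on the array 0 passed 2-fold upward in either GFP positive fraction, and 3 passed it downward in GFP+++: Pde1c, a phosphodiesterase that ends the cAMP signal (log2 -1.02), Grk3, the kinase that desensitises receptors (-1.49), and Gnai2, an inhibitory G protein (-1.28). Of all genes 1.92% passed upward and 12.4% downward in GFP+++, so these counts are near the background. The olfactory G protein Gnal read 6757 on GFP+++, 10389 on GFP+ and 9335 on GFP-, the cyclase Adcy3 3653, 7578 and 5522, and the channel subunit Cnga2 6845, 7862 and 6617. The list median was -0.26 in GFP+++, and 0.21 in GFP+. With median scaling the first turned to 0.16, with 2 genes past 2-fold upward and 1 downward in GFP+++, although it lay at -0.27 and -0.26 when the median of all genes was taken off. None of the 18 was 2-fold above GFP- in GFP+ under any of the 3 scalings.

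The trafficking helpers measured were 3. Rtp1 and Rtp2 had no probe set of their own, and Rtp3 and Reep2 were under the floor on all arrays. Reep1 read 1047 on GFP+++, 2524 on GFP+ and 1638 on GFP-, and Reep6 585, 634 and 629. Rtp4, a member of the receptor transporter family that interferon also induces, passed 2-fold downward in GFP+++ (log2 -1.87), beside 12.4% of all genes.

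Of 17 genes of receptor choice, 0 passed 2-fold upward in GFP+++ and only Cbx5, a heterochromatin protein, downward (log2 -1.45), and 0 passed in GFP+. These counts too are near the shares of all genes in GFP+++, 1.92% upward and 12.4% downward. With median scaling 3 of the 17 passed upward in GFP+++, where the median log2 ratio of all genes rose to 0.42. Emx2, a homeodomain factor needed for many receptors, read 4871 on GFP+++, 2726 on GFP+ and 2631 on GFP-, and Lhx2 7708, 5592 and 6375. The Ebf factors Ebf2 (log2 0.05), Ebf3 (0.17) and Ebf1 (0.29) lay near 0 in GFP+++, and Ebf4 was at 0.62 in GFP+++ and 0.77 in GFP+. Atf5 (-0.01), a stress factor that acts in the feedback that fixes a receptor choice, was also within 2-fold. So were the stress factor Ddit3 (0.93) and the demethylase Kdm1a (0.20).

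The ratios of the 5 receptors held under other scalings. Scaling by the median moved the median of all genes to 0.42 for GFP+++ over GFP- and 0.13 for GFP+ over GFP-. Relative to all genes the 5 then lay between 1.64 and 2.71 and between 1.46 and 2.45, beside 1.64 to 2.70 and 1.47 to 2.45 with the trimmed mean. With quantile normalization they lay between 1.85 and 2.82 and between 1.58 and 2.55 relative to all genes. With the floor raised to the 65th percentile, 276, only Olfr73 and Olfr749 kept 2-fold on both arrays, and the ratios of the other 3 became bounds between 0.23 and 0.88 on the log2 scale.

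**Figure D5:**
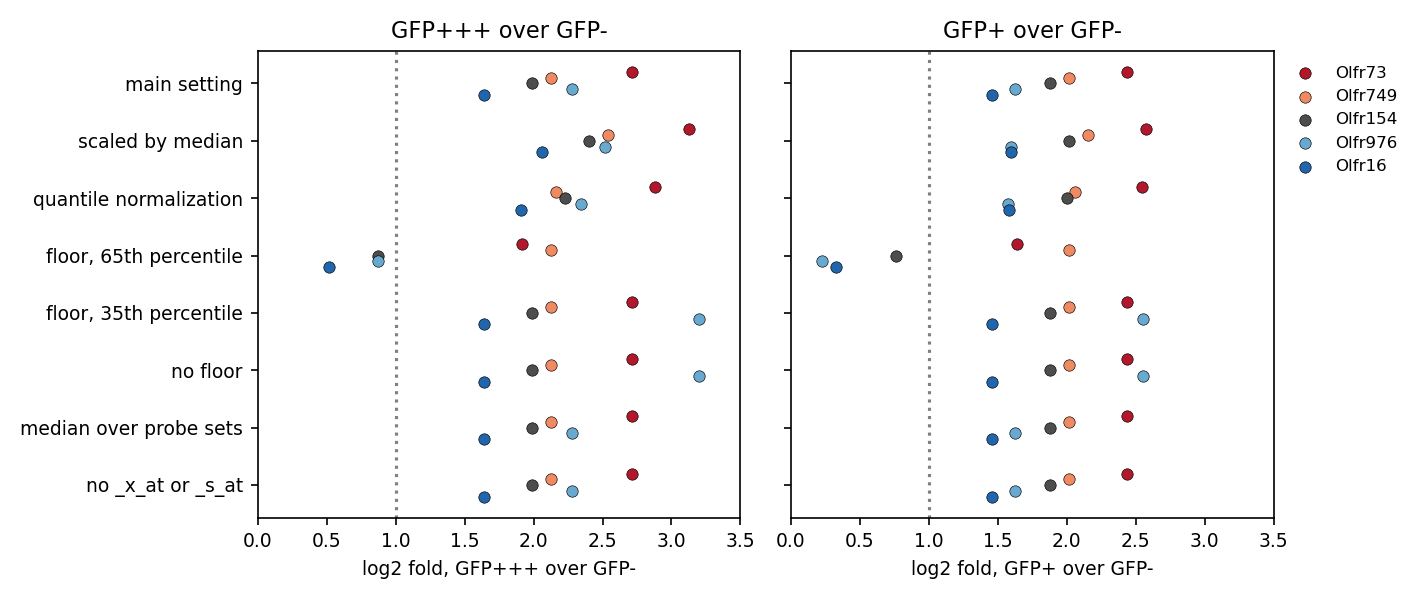
Log2 fold of each receptor over GFP- for GFP+++ (left) and GFP+ (right) under the main setting and 7 alternatives; the dotted line marks 2-fold. All points lie above 1 except those of Olfr154, Olfr976 and Olfr16 under the floor at the 65th percentile.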

How the data were processed

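Total RNA of the 3 sorted fractions was hybridised as biotin-labelled cRNA to 1 Affymetrix array each, as the labels' protocols state. Each deposited value is the linear signal intensity of a probe set, from MAS5 as run by the authors (per the submitters' processing notes), with version and settings not given in the sources used here. Their 2% trimmed mean was 500.0 on each array.

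Of 45101 probe sets, 34945 had 1 gene symbol, 932 several and 9224 none or were among the 64 controls. The brightest probe set was kept for each of 18193 genes. A common trimmed mean was set for all arrays, signals under the pooled median of 104 were raised to it, and log2 ratios were called at 2-fold. A gene was left out of a comparison where neither array passed the floor. With 1 array a group no test was made, and the number of arrays limits the precision. Class I was assigned from MOR families up to 42 on chromosome 7, and all other receptors were class II. Gene order, names and promoter windows came from RefSeq, GRCm38.p6, whose match to the array's build is not stated, so only order was used beside the windows. All 5 receptors matched by symbol.

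The receptors and gene lists were chosen with earlier results of these data known. Named beside the 5 are all receptors past 2-fold on both arrays, the 3 next below, genome neighbours, the 6 genes most alike and the brightest or called members of the lists. Other receptors were chosen for naming with their values known. The computation was tested on simulated data. It used Python 3.11.15 and numpy 2.4.6.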

Additional observations from a re-analysis of the deposited data

How the results depend on the processing

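The 4 counts over all receptors and the 15 ratios of the 5 receptors were recomputed under 7 alternatives. Counts over the receptor classes and gene lists were recomputed under the scalings alone. The share of all genes past 2-fold in a single comparison was not recomputed beside them. Of the 105 resulting receptor ratios 0 changed direction, 89 moved by less than the SD among probe sets and 16 by more. Only the scalings could turn a direction, since a floor cannot and the alternatives on probe sets changed nothing for the 5. The ratios that could not change count among the 89. The floor mattered most. At the 65th percentile 4 receptors in place of 8 were 2-fold higher in GFP+++ against GFP-, 6 in place of 11 in GFP+, 4 in place of 7 on both, and 2 in place of 5 were 2-fold apart between GFP+++ and GFP+. Fewer receptors are above that floor. At the 35th percentile 18 were 2-fold apart between GFP+++ and GFP+, and with no floor 21, while 17 were then higher in GFP+ than in GFP-. Those added counts rest on signals near background. Counts under the other alternatives stayed within 1.5 times. The ratio of Olfr976 over GFP- went from a log2 bound of 2.28 to 3.20 in GFP+++ without the floor. The alternatives on probe sets left all 5 as they were, since each has 1 probe set without an _x_at or _s_at ending. No paired analysis was possible because each group has 1 array.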

Other observations

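Beyond receptors, 15 of the 22 genes at least 2-fold higher on both GFP positive arrays were other genes. Those not yet described, named after their values were seen, include Tafa4, a secreted neuronal protein (360 on GFP+++, 794 on GFP+ and 133 on GFP-), and Rab3b, a synaptic vesicle GTPase (2054, 2267 and 991). Dpf3, a subunit of the BAF chromatin remodeler, gave 606, 390 and 178, and the transcription factor gene Zbtb46 1143, 878 and 387. Tafa4 was highest in GFP+, unlike the 5 receptors, and Dpf3 and Zbtb46 were highest in GFP+++, like them.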
